A study of Homo sapiens with 6 samples.

Results

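The heat shock response keeps cytosolic proteins folded. Its transcription factor, HSF1, is held inactive by chaperones in unstressed cells, and on heat or other proteotoxic stress it forms trimers that bind repeats of the bases GAA and TTC, the heat shock elements, in front of chaperone genes. The products work as a relay: J proteins such as DNAJB1 hand an unfolded client to an HSP70 protein and stimulate its ATPase, HSP110 proteins exchange its nucleotide, and HSP90 finishes the folding of kinases, steroid receptors and other clients. The endoplasmic reticulum (ER) has a separate set of chaperones under the unfolded protein response, with HSPA5 (BiP), its HSP70 protein, as the best known target.

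The genes of the first system followed here were HSF1, HSPA1A, HSPA1B, HSPA4, HSPA8, HSPA9, HSPH1, HSP90AA1, HSP90AB1 and DNAJB1, and HSPA5 was set against them. The 10 were chosen by name, by the gene symbol of the probe. They and the lists of partner genes used later were chosen with earlier results of these data known. Their counts beside the shares over all genes are therefore descriptions and not an independent test. The 10 are among 18336 genes with a probe of 1 gene symbol on the array, and 13 probes carried their symbols alone. The label "cytosolic" holds for 9 of them, since HSPA9 (mortalin) is the HSP70 protein of the mitochondrial matrix. None of the 13 probes was dim on any array, which means that the deposited flag marked none as below a raw intensity that lay between 58 and 75, depending on the array. The measurements came from TFK-1, an established line of human extrahepatic cholangiocarcinoma, hybridized to 1-colour Human OneArray slides with Cy5-labelled RNA. According to the labels, 3 samples overexpressed HOXA5, a homeobox transcription factor, and 3 were normal controls; cells of both groups were transduced with lentivirus and selected with puromycin as stable lines. Whether each sample came from a culture of its own is not stated, and the p-values below therefore rest on a spread between samples that may be technical. The arrays measured RNA of whole cultures, in which less RNA per cell and fewer cells with that RNA cannot be told apart.

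The HOXA5 probe PH_hs_0035417 followed the labels. Its normalized log2 intensity (log2 of the raw intensity plus 50, quantile normalized over the arrays) was 9.09, 8.97 and 8.97 in HOXA5 samples 1 to 3, against 7.10, 7.27 and 6.85 in control samples 1 to 3, a log2 fold change of 1.94 ± 0.12 (SE, adjusted p = 0.000766 by limma, a linear model whose error estimate borrows from all probes). A second probe of HOXA5 read lower in the HOXA5 samples, with a log2 fold change of -0.34 ± 0.07 (limma adjusted p = 0.0253). The epithelial genes KRT19, EPCAM, SOX9 and CDH1 were above the dim limit on every array, while COL1A2, DCN and PDGFRB of fibroblasts, PTPRC and CD3E of leukocytes and ALB of hepatocytes were dim on all 6. Of the 6 measured epithelial markers, 3 were higher in HOXA5 samples, namely CDH1 (log2 fold change 1.40), SOX9 (0.75) and KRT19 (0.44), and 0 were lower. KRT7 was dim on 1 HOXA5 array and KRT8 on none. Of the genes listed for other cells, COL1A1, CD68, VWF and APOA1 were above the dim limit on every array, and PECAM1, CDH5 and TTR were dim on 1 to 3 arrays. Of these 13 genes 1 was higher and 0 lower by limma, with 1 higher and 1 lower at an unadjusted p under 0.05. The gene that was higher was APOA1 of hepatocytes, with a log2 fold change of 0.89 ± 0.19 at its brighter probe and -0.03 ± 0.14 at the other (SE, limma adjusted p = 0.0279 and 0.911). The part of these markers in the results below was not tested. The median raw intensity of an array was 177, 176 and 95 in the HOXA5 samples and 180, 166 and 126 in the controls. HOXA5 replicate 2 stood apart, since over all probes it correlated with the other HOXA5 arrays at r = 0.9789 and 0.9731, where every other pair within a group reached 0.9899 to 0.9948. Results that this array decides are therefore given with and without it.

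To show which elements these genes carry, promoter windows of 250 bases before to 50 bases after each annotated start were taken from RefSeq (GRCh38.p14), which held 1 to 3 such windows for 9 of the 10 genes and for HSPA5. A heat shock element of 2 units was searched as GAANNTTC or TTCNNGAA, and a stricter one of 3 units as GAANNTTCNNGAA or TTCNNGAANNTTC, which contains a pair of the 2-unit matches. Both searches are the same on either strand. They took exact GAA and TTC units inside these windows only, so elements with an imperfect unit or further away were not counted. The 2-unit element stood in 13.5% of all 35116 windows and the 3-unit element in 0.490%, and by gene, any window counting, in 16.2% and 0.608% of 27305 genes. Of the 9 genes, 3 of which had several windows, 7 held the 2-unit element in a window and 3 held the 3-unit element, namely HSPA8, HSP90AA1 and HSP90AB1. The windows of HSPA4 and HSPH1 held neither. HSPA9 held only a 2-unit match across its start.

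The stretches that carry the 3-unit matches are shown first, because they separate the constitutive HSP70 gene and both HSP90 genes from the others. Capitals mark the match, and positions count back from -1, the last base before the start. HSPA8 had a match at -230 to -218, in chr11:123062334-123062386 (minus strand), and another at -55 to -43, in chr11:123062159-123062211 (minus strand). HSP90AA1 had its match at -88 to -76 of the second of its 2 starts, in chr14:102087100-102087152 (minus strand). HSP90AB1 had matches at -165 to -153 and -112 to -100 of the third of its 3 starts, in chr6:44247758-44247863 (plus strand).
HSPA8, upper element: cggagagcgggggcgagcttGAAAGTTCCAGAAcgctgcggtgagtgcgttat
HSPA8, lower element: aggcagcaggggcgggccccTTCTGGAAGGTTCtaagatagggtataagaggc
HSP90AA1: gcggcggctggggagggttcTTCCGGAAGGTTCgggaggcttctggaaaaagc
HSP90AB1: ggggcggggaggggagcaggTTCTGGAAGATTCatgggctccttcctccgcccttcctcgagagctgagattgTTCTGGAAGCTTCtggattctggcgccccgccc

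By this exact search, the heat-inducible HSP70 genes and DNAJB1 carried only 2-unit matches. HSPA1A and HSPA1B lie next to each other on chromosome 6 and encode nearly the same protein. The stretches around their elements, chr6:31815417-31815464 and chr6:31827613-31827660 (both plus strand), are 48 bases long and differ at 1 base, so they show how alike these neighbours are. DNAJB1 had matches at -77 to -70 and -47 to -40 of the second of its 3 starts, in chr19:14518417-14518494 (minus strand).
HSPA1A: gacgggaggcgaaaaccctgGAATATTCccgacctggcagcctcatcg
HSPA1B: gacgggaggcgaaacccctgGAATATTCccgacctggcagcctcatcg
DNAJB1: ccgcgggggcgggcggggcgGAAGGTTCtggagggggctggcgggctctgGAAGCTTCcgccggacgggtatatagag

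The ER stress element, to which the factors of the unfolded protein response bind, was searched on both strands as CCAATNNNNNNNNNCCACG. It stood in 0.0769% of windows, and in 0 of the 9 genes. HSPA5 had it at -66 to -48, in chr9:125241371-125241429 (minus strand), and held no heat shock element of either form. The sequence is shown as the contrast to those above.
HSPA5: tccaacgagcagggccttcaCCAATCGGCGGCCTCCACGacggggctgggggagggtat

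**Figure D1:**
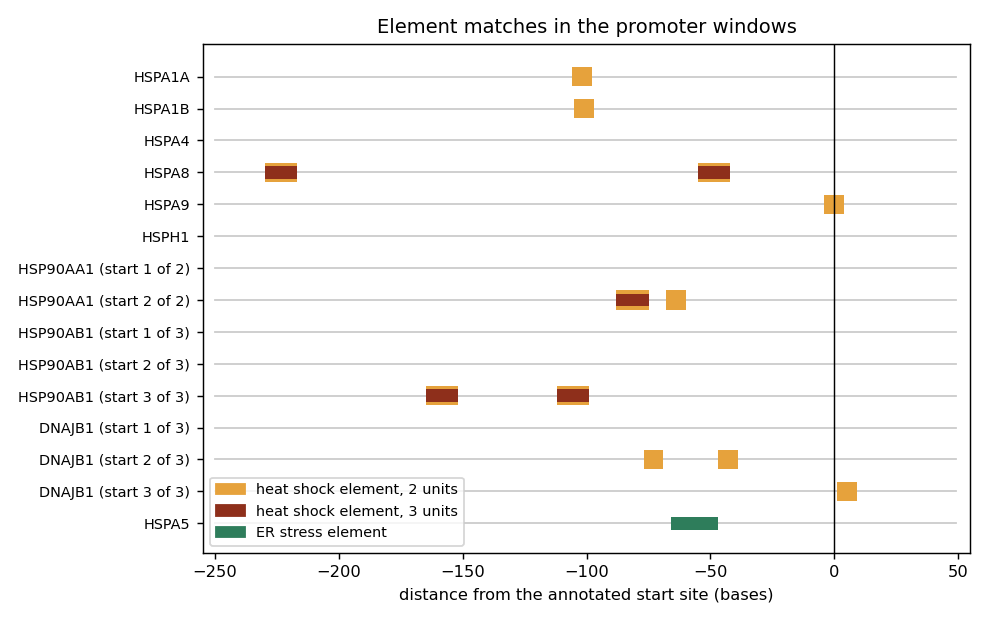
Matches to the elements in each RefSeq promoter window, by distance from the annotated start site in bases (0 is the first transcribed base, upstream is negative). Each line is 1 window; boxes mark 2-unit heat shock elements, 3-unit heat shock elements and the ER stress element, and the windows of HSPA4 and HSPH1 are empty.

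Against this background, 5 of the 10 genes were lower in HOXA5 samples than in controls, 0 were higher, and 5 passed in neither direction (limma, Benjamini-Hochberg adjusted p under 0.05 over all 31741 probes, the brightest probe of a gene standing for it). The 5 were HSPA1B, HSPA9, HSPH1, HSP90AA1 and HSP90AB1, with levels between 45.6% and 70.9% of the control. Of all genes, 11.0% were lower and 13.1% higher by the same rule, and among genes at least as bright as the dimmest of the 10 these shares were 18.2% and 18.9%. That dimmest gene was HSPA1A, at percentile 65.4 of mean level among probes, and the next was HSF1, at 84.8. The brighter background thus still includes genes dimmer than all of the 10 but HSPA1A. The median log2 fold change of the 10 genes was -0.64, that of all genes -0.01. HSPA5 was 12.5-fold higher. At an unadjusted p under 0.05, the same limma fit still gave 0 genes higher and 5 lower. Of all 18336 genes, 3484 were higher and 18.1% lower by that rule. The t-test of the study's methods also gave 0 higher at an unadjusted p under 0.05, and 5 of the 10 passed it, all lower. By that t-test 9526 of the 31741 probes passed in either direction. That count is of probes and of both directions, so it is not a matching share for these gene counts.

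The groups did not overlap for 5 genes that read lower in HOXA5 samples, where 20.4% of all genes did so, and for 1 gene that read higher, where 21.0% did so. HSPH1 was the only gene of the 10 that was lower by at least 2-fold, which 2.39% of all genes were. Counted by probe, 8 of 13 were lower and 0 higher, against 9.56% and 11.0% of all probes. By at least 2-fold, 4 of the 13 were lower, against 1.98% of all probes. The shares of all probes include dim probes, while none of the 13 was dim, and 3 of the 10 genes count with several probes. Without HOXA5 replicate 2, the count of lower genes was again 5. It was 2 or 3 when any other array was left out, 1 in the authors' own normalized values and 2 by the t-test of the methods. The count of lower probes over the whole array moved too. It was 3035 in the main setting, 4073 without HOXA5 replicate 2 and 1570 to 2245 without any other array. In the authors' values it was 1464, and by the t-test 1827.

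**Figure D2:**
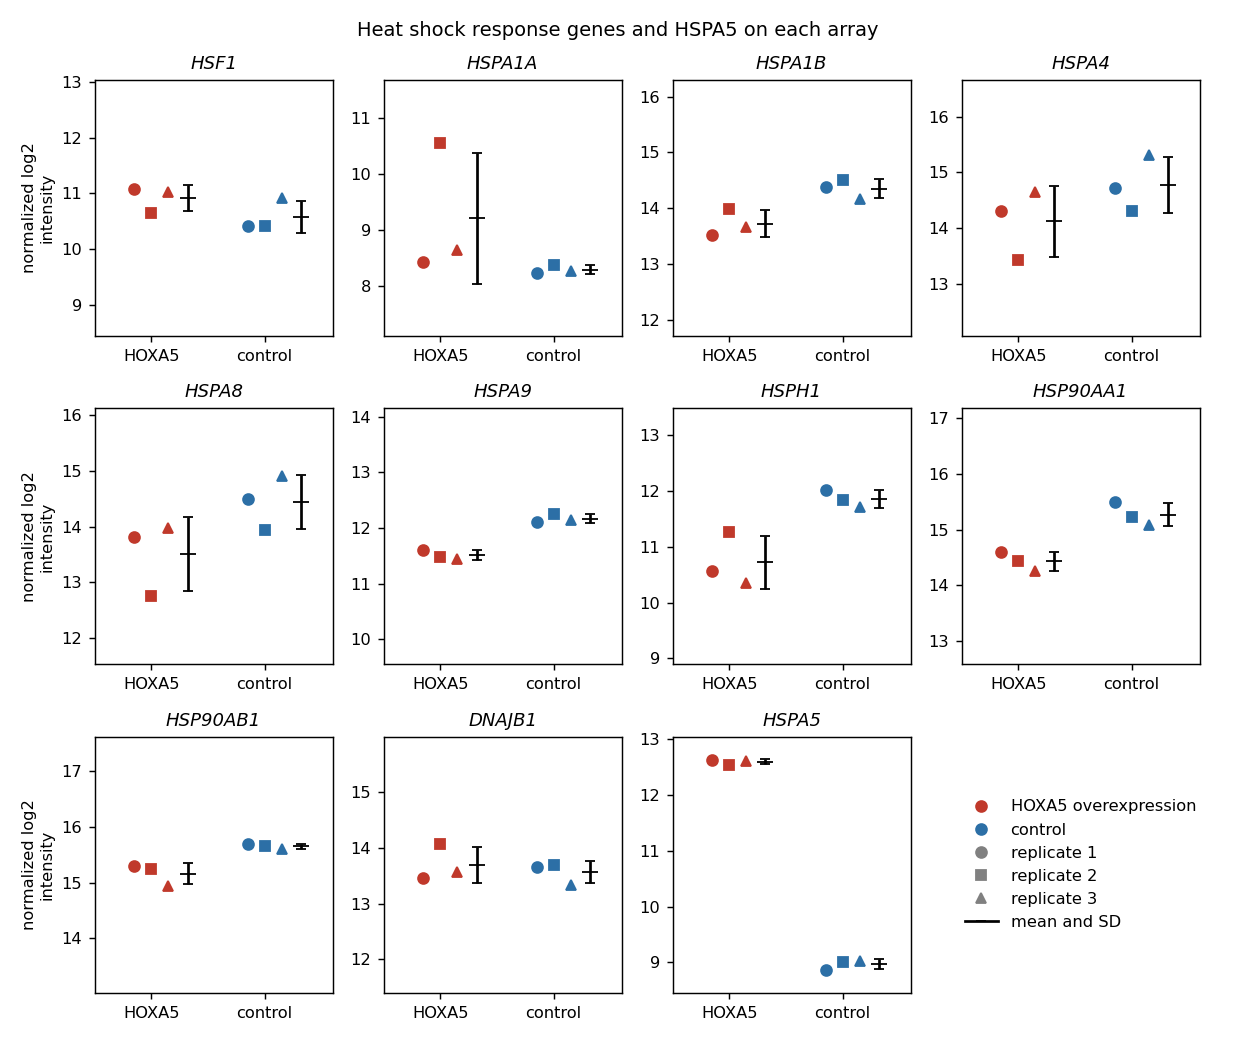
Normalized log2 intensity (y axis, every panel spanning the same number of log2 units) of the 10 genes and HSPA5 in the HOXA5 samples (left in each panel, 3 arrays) and the controls (right, 3 arrays). Symbols give the replicate, and bars the mean and SD. HSPA5 is far above its controls on all 3 HOXA5 arrays, while HSPA9, HSP90AA1 and HSP90AB1 lie below theirs.

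HSF1, the factor itself, read 11.07, 10.64 and 11.03 log2 intensity in HOXA5 samples 1 to 3, against 10.41, 10.42 and 10.91 in controls 1 to 3. HOXA5 replicate 2 fell below control replicate 3, so the groups overlapped. The log2 fold change was 0.34 ± 0.19 (SE, limma adjusted p = 0.283), with a 95% interval from -0.13 to 0.80. The estimate lay between 0.25 and 0.50 under all 16 alternatives (other scalings, offsets, filters and tests, and each array left out in turn) and passed in none of them. The array gives RNA only and says nothing of how much HSF1 was active.

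The cytosolic J protein DNAJB1 works with HSP70 and with HSF1, whose activity it dampens. It read 13.45, 14.06 and 13.57 log2 intensity in HOXA5 samples 1 to 3, against 13.65, 13.70 and 13.33 in controls 1 to 3. The groups interleaved, with replicate 2 the highest of each. Its log2 fold change was 0.13 ± 0.19 (SE, limma adjusted p = 0.711; 95% interval -0.35 to 0.61). Its sign was not settled: it was -0.02 after scaling each array to its median or its 75th percentile, -0.07 in the authors' values and -0.05 without HOXA5 replicate 2.

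Of the stress-inducible HSP70 genes, HSPA1B was lower. It read 13.51, 13.99 and 13.66 log2 intensity in HOXA5 samples 1 to 3, against 14.38, 14.50 and 14.16 in controls 1 to 3. The highest HOXA5 sample was below the lowest control. HSPA1B thus had a log2 fold change of -0.63 ± 0.15 (SE, limma adjusted p = 0.0406), or 64.8% of the control level. It stayed below 0 under all 16 alternatives and passed in 9 of them. It missed when any array other than HOXA5 replicate 2 was left out (limma adjusted p = 0.0606 to 0.138). Without HOXA5 replicate 2 it passed at -0.75 (limma adjusted p = 0.0137). The authors' values (limma adjusted p = 0.0775) and the methods' t-test (t-test adjusted p = 0.103) were misses as well.

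HSPA1A did not share this. Its probe read 8.43, 10.56 and 8.63 log2 intensity in HOXA5 samples 1 to 3, against 8.23, 8.37 and 8.26 in controls 1 to 3. All 3 HOXA5 values were above the controls, but replicate 2 was far above the other two. For HSPA1A the log2 fold change was 0.92 ± 0.58 (SE, limma adjusted p = 0.342), and 0.25 without HOXA5 replicate 2 (limma adjusted p = 0.109). Raw intensity on that array was 1531, against 349 and 231 on the other HOXA5 arrays. The sequences of the probes are not used here, so how far each of these 2 probes also takes up the RNA of its near-identical neighbour was not tested.

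HSPA8 (HSC70), the constitutive cytosolic HSP70 protein, had 2 probes, both with estimates below 0. The brighter, PH_hs_0039202, read 13.81, 12.75 and 13.98 log2 intensity in HOXA5 samples 1 to 3, against 14.50, 13.93 and 14.90 in controls 1 to 3. HOXA5 replicate 3 was above control replicate 2, and replicate 2 was the lowest of both groups. This probe had a log2 fold change of -0.93 ± 0.41 (SE, limma adjusted p = 0.180), and -0.54 without HOXA5 replicate 2 (limma adjusted p = 0.244). With the replicate number as a block in the fit, this probe passed (limma adjusted p = 0.014).

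The dimmer HSPA8 probe, PH_hs_0040139, passed. It read 11.98, 12.55 and 11.37 log2 intensity in HOXA5 samples 1 to 3, against 13.37, 13.21 and 12.94 in controls 1 to 3. Here the groups were apart and HOXA5 replicate 2 was the highest of its group, the opposite of the brighter probe. At this probe the log2 fold change was -1.21 ± 0.31 (SE, limma adjusted p = 0.0473), or 43.4% of the control level, and it passed in 7 of 15 alternatives. It missed when any array other than HOXA5 replicate 2 was left out (limma adjusted p = 0.0635 to 0.158). It also missed with an offset of 100 and in the authors' values (limma adjusted p = 0.0559 and 0.0998), and by the methods' t-test (t-test adjusted p = 0.121). Without HOXA5 replicate 2 it was -1.50 (limma adjusted p = 0.0126). With the mean of both probes in place of the brighter probe, HSPA8 had a log2 fold change of -1.07 (limma adjusted p = 0.00171).

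HSPA4 (APG2) and HSPH1 (HSP105) are HSP110 proteins, which exchange the nucleotide of HSP70 and hold unfolded clients. HSPA4 read 14.31, 13.42 and 14.65 log2 intensity in HOXA5 samples 1 to 3, against 14.73, 14.30 and 15.31 in controls 1 to 3. As for the brighter HSPA8 probe, replicate 2 was the lowest of each group, and the groups overlapped. HSPA4 had a log2 fold change of -0.65 ± 0.40 (SE, limma adjusted p = 0.330), and -0.30 without HOXA5 replicate 2 (limma adjusted p = 0.543). With the replicate number as a block in the fit, HSPA4 passed (limma adjusted p = 0.0261).

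HSPH1 was lower at both of its probes. The brighter, PH_hs_0002918, read 10.57, 11.26 and 10.35 log2 intensity in HOXA5 samples 1 to 3, against 12.03, 11.85 and 11.71 in controls 1 to 3. The groups were apart, with HOXA5 replicate 2 nearest to the controls. Its log2 fold change was -1.13 ± 0.25 (SE, limma adjusted p = 0.0290), or 45.6% of the control level, and it passed in 9 of 16 alternatives. Without HOXA5 replicate 2 it was -1.41 (limma adjusted p = 0.00358), and it missed when any other array was left out (limma adjusted p = 0.0657 to 0.110). The authors' values (limma adjusted p = 0.0806) and the methods' t-test (t-test adjusted p = 0.0878) were misses as well.

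The dimmer HSPH1 probe, PH_hs_0031157, had the tighter groups. It read 8.74, 8.88 and 8.73 log2 intensity in HOXA5 samples 1 to 3, against 9.99, 10.02 and 10.12 in controls 1 to 3. No HOXA5 sample came within 1 log2 unit of a control. The log2 fold change was -1.26 ± 0.07 (SE, limma adjusted p = 0.000669), or 41.8% of the control level, and it passed in all 15 alternatives run for it.

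HSP90AA1, the inducible HSP90 of the cytosol, was lower at both probes as well. The brighter, PH_hs_0040733, read 14.59, 14.44 and 14.26 log2 intensity in HOXA5 samples 1 to 3, against 15.50, 15.23 and 15.08 in controls 1 to 3. The highest HOXA5 sample was below the lowest control. Here HSP90AA1 had a log2 fold change of -0.84 ± 0.14 (SE, limma adjusted p = 0.0122), or 55.8% of the control level. It passed in 15 of 16 alternatives and missed in the authors' values, at -0.97 (limma adjusted p = 0.0532).

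The dimmer HSP90AA1 probe, PH_hs_0043676, read 12.16, 12.55 and 12.18 log2 intensity in HOXA5 samples 1 to 3, against 13.41, 13.62 and 13.31 in controls 1 to 3. The groups were apart again. The log2 fold change was -1.15 ± 0.14 (SE, limma adjusted p = 0.00453), or 45.0% of the control level, and it passed in all 15 alternatives run for it.

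HSP90AB1, the constitutive HSP90, read 15.29, 15.24 and 14.94 log2 intensity in HOXA5 samples 1 to 3, against 15.70, 15.65 and 15.61 in controls 1 to 3. Every HOXA5 sample was lower than every control. HSP90AB1 had a log2 fold change of -0.50 ± 0.11 (SE, limma adjusted p = 0.0273), or 70.9% of the control level, and it passed in 11 of 16 alternatives. It missed when any control array was left out (limma adjusted p = 0.0764 to 0.0946). It also missed in the authors' values (limma adjusted p = 0.127) and by the methods' t-test (t-test adjusted p = 0.072). Its raw intensity reached 59274 on control replicate 2, near the 65000 taken as saturated. A further probe, shared between HSP90AB1 and its pseudogene HSP90AB4P and so outside the 13, was saturated on 2 HOXA5 and all 3 control arrays and gave a log2 fold change of 0.02 ± 0.05.

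HSPA9, the mitochondrial HSP70 that pulls imported proteins into the matrix, had the smallest standard error of the genes that passed at their brightest probe. It read 11.61, 11.48 and 11.45 log2 intensity in HOXA5 samples 1 to 3, against 12.10, 12.25 and 12.15 in controls 1 to 3. The groups were apart, and the samples of each lay close together. HSPA9 had a log2 fold change of -0.66 ± 0.07 (SE, limma adjusted p = 0.00337), or 63.5% of the control level. HSPA9 was the only one of the 10 that passed under all 16 alternatives, with adjusted p up to 0.0420.

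**Figure D3:**
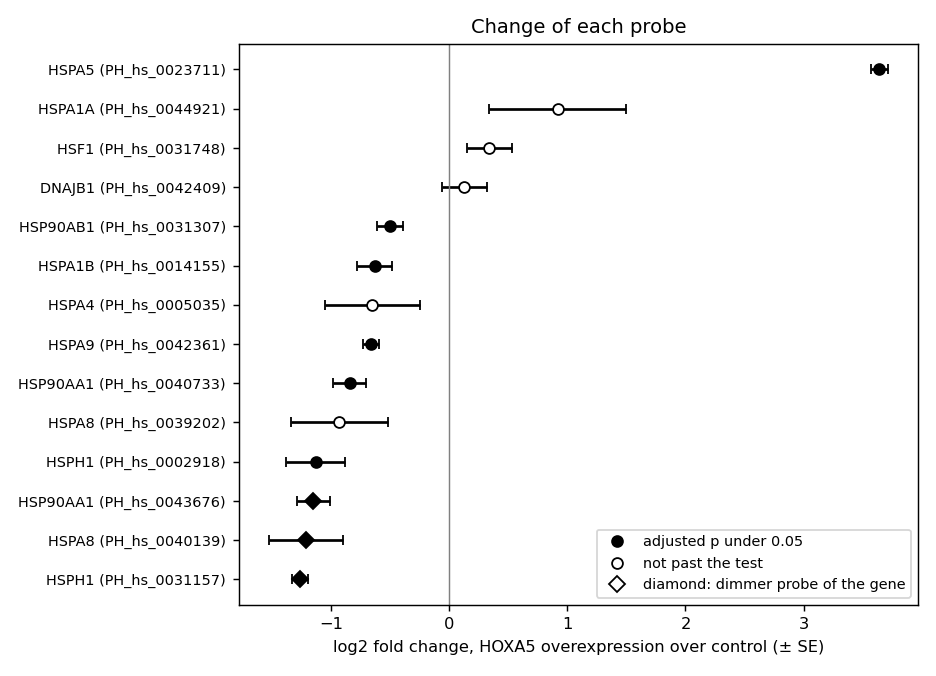
Log2 fold change, HOXA5 over control, with its SE for the 13 probes of the 10 genes and the HSPA5 probe (3 arrays a group). Filled symbols passed limma's adjusted p threshold and diamonds are the dimmer probe of a gene; HSPA5 stands at 3.64, and the 8 probes that passed among the 13 lie between -0.50 and -1.26.

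For HSPA5 the direction was the opposite. Its probe read 12.64, 12.55 and 12.62 log2 intensity in HOXA5 samples 1 to 3, against 8.86, 9.01 and 9.02 in controls 1 to 3, with raw intensities of 6993, 5994 and 4510 against 483, 517 and 398. The log2 fold change was 3.64 ± 0.07 (SE, limma adjusted p = 5.82e-05). To compare changes directly, the log2 value of HSPA5 on each array was taken from that of every other probe on the same array before the fit. The change of each of the 10 genes was then below that of HSPA5, from -2.72 ± 0.54 for HSPA1A (SE, limma adjusted p = 0.00167) to -4.78 for HSPH1 at its brighter probe (limma adjusted p = 6.1e-07), in the main setting and in all 16 alternatives. As 99.9% of all genes also changed less than HSPA5, nothing particular to the 10 follows from this count. With all arrays HSPA1A, the nearest of the 10 to HSPA5 in change, was thus still 2.72 log2 units short of it. Without HOXA5 replicate 2 the nearest was HSF1, with a log2 fold change of 0.47. On that setting HSPA1A had 0.25 and HSPA5 3.70.

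**Figure D4:**
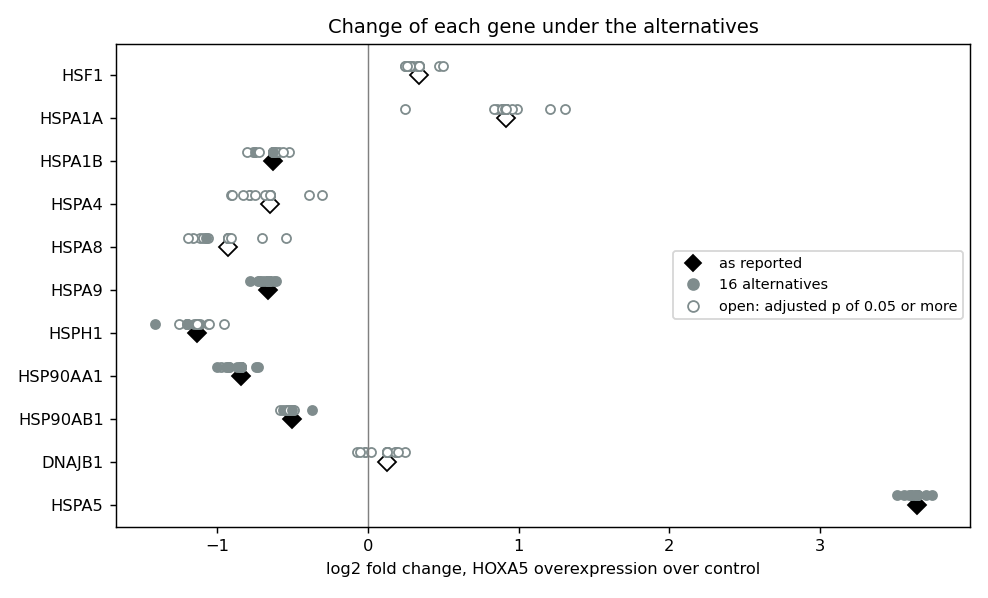
Log2 fold change, HOXA5 over control, of the 10 genes and HSPA5 as reported (diamonds) and under the 16 alternatives (circles). Open symbols had an adjusted p of 0.05 or more; HSPA9 and HSPA5 are filled throughout, and DNAJB1 crosses 0.

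The partners of these genes were read from 8 lists with 99 genes, of which 89 were measured. Their counts are to be read against the shares over all genes, 11.0% lower and 13.1% higher, or 18.1% lower and 3484 of the 18336 genes higher at an unadjusted p under 0.05. Among 7 measured members of the HSF family and regulators of HSF1, 1 was higher, 1 lower and 5 neither (median log2 fold change -0.11), close to those shares. HSF4, a factor known for its role in the lens, was higher by 0.86 ± 0.11 (SE, limma adjusted p = 0.00565). DAXX, a nuclear protein that can activate HSF1, had -0.61 ± 0.11 (SE, limma adjusted p = 0.0147). The estimate was -0.11 ± 0.08 for HSF2 and -0.66 ± 0.21 for HSBP1, which binds the HSF1 trimer, and neither passed (limma adjusted p = 0.409 and 0.0869).

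The 6 other measured HSP70 and HSP110 genes of the cytosol held 1 higher, 2 lower and 3 neither (median -0.25), and over the alternatives 0 to 1 higher and 0 to 2 lower. HSPA14, which works at the ribosome, had a log2 fold change of -1.13 ± 0.20 (SE, limma adjusted p = 0.0145). HSPA1L, the testis HSP70 gene beside HSPA1A, had -0.60 ± 0.12 at raw intensities of at most 143 and was dim on 1 HOXA5 array, and HSPA12A had 0.69 ± 0.16 (SE, limma adjusted p = 0.0213 and 0.0344). They passed in 8 and 7 of 15 alternatives.

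The list of cytosolic J proteins held 2 higher, 6 lower and 10 neither of 18 (median -0.29), where 13.1% of all genes were higher and 11.0% lower. Its heading is loose, since some of the 18, lower ones among them, work mainly in the nucleus or at the ER membrane. Over the alternatives, 0 to 3 were higher and 2 to 7 lower. DNAJA1, a main partner of HSPA8, read raw intensities of 1249, 699 and 1093 in HOXA5 samples 1 to 3, against 3905, 2424 and 3751 in controls 1 to 3. Its log2 fold change was -1.55 ± 0.38 (SE, limma adjusted p = 0.0414), the lowest of the 18, and it passed in 9 of 15 alternatives. DNAJC9, a J protein that is also a histone chaperone, had -1.31 ± 0.07 (SE, limma adjusted p = 0.000547) and passed in all 15. DNAJA4 had -0.82 ± 0.14, while DNAJC6, the auxilin that uncoats clathrin vesicles, was higher by 0.92 ± 0.19 (SE, limma adjusted p = 0.0136 and 0.0253). DNAJB4, close in sequence to DNAJB1, had -0.23 ± 0.09 and did not pass (limma adjusted p = 0.136), and neither did DNAJB5 at 0.30 ± 0.08 (limma adjusted p = 0.0603).

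Of 8 nucleotide exchange and degradation partners of HSP70, 0 were higher, 1 lower and 7 neither (median -0.19), a count of lower genes near the 11.0% of all genes. At an unadjusted limma p under 0.05, 1 was higher and 4 lower, where 18.1% of all genes were lower. HSPBP1, an exchange factor, had a log2 fold change of -0.90 ± 0.17 (SE, limma adjusted p = 0.0184). BAG1 and BAG2, which also release the HSP70 client, had -0.39 ± 0.14 and -0.97 ± 0.34 and did not pass (SE, limma adjusted p = 0.120 and 0.108). BAG1 passed in 2 and BAG2 in 1 of 15 alternatives. For BAG2, HOXA5 replicate 2 was the lowest sample, at a raw intensity of 974 against 2313 and 1319 on the other HOXA5 arrays.

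Of 15 measured HSP90 cochaperones, 8 were lower, 1 higher and 6 neither (median -0.60), where 11.0% of all genes were lower and 13.1% higher. The count of lower genes ranged from 3 to 8 over the alternatives. PPID, a cyclophilin of steroid receptor complexes, read raw intensities of 1494, 1205 and 1171 in HOXA5 samples 1 to 3, against 5082, 3474 and 3974 in controls 1 to 3, with a log2 fold change of -1.50 ± 0.20 (SE, limma adjusted p = 0.00619). CHORDC1 had -1.52 ± 0.25 (SE, limma adjusted p = 0.0123) at its brighter probe. The other had -1.66 ± 0.83, did not pass and was dim on HOXA5 replicate 2 only (SE, limma adjusted p = 0.237). AHSA1, the activator of the HSP90 ATPase, had -1.31 ± 0.25 at its brighter probe, whose raw intensity was saturated at 65510 on control replicate 2, and -1.45 ± 0.35 at the other (SE, limma adjusted p = 0.0195 and 0.0387). SUGT1, which links HSP90 to the kinetochore and innate immune receptors, had -0.94 ± 0.11 (SE, limma adjusted p = 0.00417). FNIP1 and CDC37L1 were among those that did not pass, at -0.35 ± 0.17 and -0.17 ± 0.30 (SE, limma adjusted p = 0.218 and 0.764).

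Of 9 small heat shock proteins, 0 were higher, 1 lower and 8 neither (median -0.10), near the 11.0% of all genes that were lower, with 0 higher and 1 lower at an unadjusted limma p under 0.05 as well; 4 of the 9 were dim on all 6 arrays. HSPB1 (HSP27), which holds unfolded proteins without ATP, read raw intensities of 22480, 23642 and 12854 in HOXA5 samples 1 to 3, against 31250, 34424 and 25992 in controls 1 to 3. Its log2 fold change was -0.45 ± 0.10 at this probe and -0.62 ± 0.12 at the other (SE, limma adjusted p = 0.0339 and 0.0206).

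Mitochondrial chaperones, the compartment of HSPA9, held 0 higher, 4 lower and 6 neither of 10 measured (median -0.35), and 0 higher and 6 lower at an unadjusted limma p under 0.05, where 11.0% and 18.1% of all genes were lower by these rules. The count of lower genes ranged from 2 to 4 over the alternatives. HSPE1 (HSP10), the lid of the matrix chaperonin, read raw intensities of 18598, 19513 and 12203 in HOXA5 samples 1 to 3, against 50930, 53367 and 44837 in controls 1 to 3. Its log2 fold change was -1.40 ± 0.07 (SE, limma adjusted p = 0.000547), and its other probes gave -1.63 ± 0.12 and -2.11 ± 0.47 (SE, limma adjusted p = 0.00119 and 0.0292). HSCB, the J protein of iron-sulfur cluster assembly, had -0.94 ± 0.11 (SE, limma adjusted p = 0.00390). DNAJC19 of the import motor was dim on all 3 HOXA5 arrays, so only a bound can be given: control samples were at least 1.44-fold brighter, against the lowest signal that was not dim on each HOXA5 array (limma adjusted p = 0.0450, passing in 8 of 15 alternatives). GRPEL1, the nucleotide exchange factor of HSPA9, had -0.34 ± 0.08 (SE, limma adjusted p = 0.0307) and passed in 4 of 15 alternatives.

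The ER chaperones, listed without HSPA5, went the other way: of 16 measured, 10 were higher, 0 lower and 6 neither (median 0.72), and 11 were higher and 1 lower at an unadjusted limma p under 0.05, where 13.1% of all genes and, unadjusted, 3484 of 18336 were higher. Over the alternatives, 5 to 12 were higher, the 5 in the authors' values. Of the 4 J proteins listed, DNAJB9 (ERdj4) had a log2 fold change of 3.01 ± 0.23 and DNAJC3 (p58IPK) of 1.96 ± 0.11 at its brighter probe and 1.24 ± 0.17 at the other (SE, limma adjusted p = 0.00129, 0.000672 and 0.00612). DNAJB11 at 0.66 ± 0.58 and DNAJC10 at 0.35 ± 0.24 did not pass (SE, limma adjusted p = 0.506 and 0.384), and their groups overlapped. For DNAJB11, HOXA5 replicate 2 read a raw intensity of 1066, against 4081 and 2360 on the other HOXA5 arrays. DNAJB9 read raw intensities of 2404, 1311 and 1511 in HOXA5 samples 1 to 3, against 205, 165 and 178 in controls 1 to 3. MANF, a small ER stress protein, had 1.71 ± 0.15, and CRELD2 had 1.15 ± 0.09 (SE, limma adjusted p = 0.00191 and 0.00127). CANX, the lectin chaperone of the membrane, had 0.35 ± 0.10 and did not pass (SE, limma adjusted p = 0.0643).

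SERPINH1 (HSP47), the collagen chaperone, lies in the ER and is also known as a heat shock gene. Its brighter probe had a log2 fold change of -1.15 ± 0.44 and did not pass, while the other had -1.16 ± 0.12 and passed (SE, limma adjusted p = 0.133 and 0.00273). The brighter probe passed in 1 of 15 alternatives. Its raw intensity was 2473 on HOXA5 replicate 2, against 5484 and 4320 on the other HOXA5 arrays. SERPINH1 thus had estimates below 0 at both probes. It was the only one of the 16 ER genes with an estimate below 0.

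**Figure D5:**
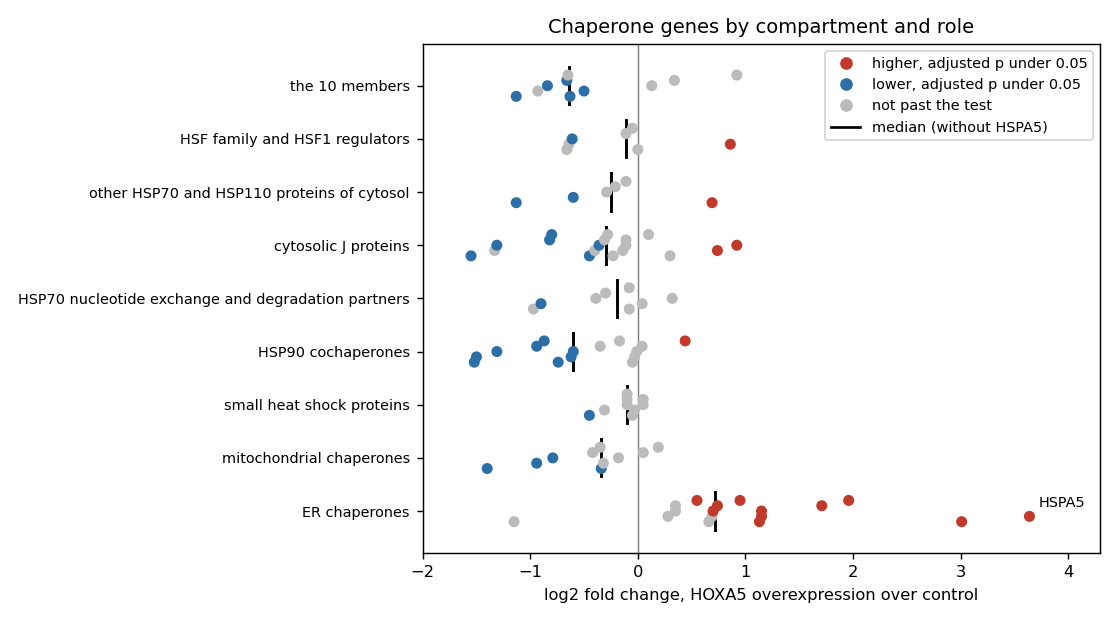
Log2 fold change, HOXA5 over control, of the 10 genes and of each measured gene in 8 lists of partners, 1 point a gene, with the median of each list as a black line (HSPA5 is plotted with the ER chaperones but left out of their median). Blue points were lower, red higher and grey did not pass limma's test; 10 ER chaperones beside HSPA5 are red, and 8 HSP90 cochaperones are blue.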

How the data were processed

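Per the labels and methods, amplified Cy5-labelled RNA was read on an Agilent G2565B scanner. The authors deposited raw intensity per probe, a detection p-value (not used) and a flag, whose low value marks dim probes here, and a second table made with GeneSpring GX 10, which equals the raw intensity times 1 constant per array. The extraction software and background method were not given in the sources used here. No column lacked a sample.

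Raw intensity plus 50 was log2-transformed, quantile normalized and fitted with limma 3.58.1 (R 4.3.3) over all 31741 probes, 3 HOXA5 against 3 control arrays, with Benjamini-Hochberg adjustment; Python 3.11.15 with pandas 2.3.3 made the tables. The added 50 understates changes of dim probes. The number of arrays limits the precision. Symbols came from the platform table: 24740 probes had 1 symbol, 977 several and 6024 none, and 1948 symbols were updated. The brightest probe of 1 symbol stood for a gene.

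The text names all 10 genes with each probe, HSPA5, HOXA5 and, per list, up to 4 genes by size of change among those that passed and up to 2 others by p. Some other probes of those genes, the remaining marker genes, DNAJB11 and DNAJC10 were added after their values were seen. Genes and lists were chosen with earlier results of these data known. Marker genes checked the cell line. The alternatives were other scalings (median, 75th percentile), the authors' values, offsets of 16 and 100, only probes not dim on at least 3 arrays, no saturated probes (raw 65000), the mean of a gene's probes, the replicate number as a block, the methods' t-test and leaving out each array. The limma steps were tested on simulated data. Pairing by replicate number was checked by correlating same-numbered deviations from the group means. Promoter sequences came from RefSeq tables.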

Additional observations from a re-analysis of the deposited data

How the results depend on the processing

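All 10 genes kept the sign of their change under every alternative except DNAJB1, which was -0.02 with median scaling, -0.02 with 75th percentile scaling, -0.07 in the authors' values and between -0.05 (without HOXA5 replicate 2) and 0.25 when 1 array was left out. Of the partner and marker genes named by the rule, CDC37L1 (0.15) and CD68 (-0.07) changed sign without HOXA5 replicate 2; leaving out 1 array at a time gave -0.35 to 0.15 for CDC37L1 and -0.07 to 0.38 for CD68. The cause was not tested.

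In the authors' values, 1443 probes were higher, 1464 lower and 1 of the 10 genes, HSPA9, was lower. By the methods' t-test the counts were 2306, 1827 and 2; it called 1654 probes at an unadjusted p under 0.05 with a 2-fold change and 1348 after Benjamini-Hochberg adjustment. Leaving out 1 array gave 1961 to 4156 probes higher, 1570 to 4073 lower and 2 to 5 of the 10 genes lower; the 2 were HSPA9 and HSP90AA1, after any control array was left out. Over these and the other settings, 265 cases were read for the 10 genes, HSPA5 and HOXA5, with their dimmer or shared probes included. Of these cases, 34 no longer passed and 3 newly passed, compared with the main setting.

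Same-numbered arrays deviated together at r = -0.107, 0.566 and 0.643, and differently numbered ones at -0.684 to 0.355. Replicates 2 and 3 thus went with their namesakes and replicate 1 did not. The main fit did not take the numbers as pairs. With the replicate block, 3868 probes were higher, 3888 lower and 7 of the 10 genes lower, HSPA4 and HSPA8 added (limma adjusted p = 0.0261 and 0.0140).

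Signal limits the ends of the scale: 30 to 64 probes an array were saturated, and small heat shock genes were often dim.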
